A study of Mus musculus with 6 samples.

Results

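The genes described here copy DNA or carry a cell from G1 into S phase, the stage of the cell cycle in which the genome is duplicated. The list has 38 members, each matched to the array by its gene symbol. Of these, 36 had a probe set on the array annotated to that symbol alone. The other 2, Gins2 and Chaf1a, had none and were not analysed here. Each gene is read from its brightest probe set, the one with the highest mean over all 6 arrays, out of 12393 genes measured in this way. No gene was left out for a low value in the main comparison, which holds all 36.

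Gene expression was read on arrays in mouse cells labelled Treg, cells that restrain immune responses and depend on the transcription factor Foxp3. The cells were sorted as CD4+YFP+, giving 3 USP7-titled and 3 control samples. The USP7-titled samples are described in the series text as fl-Usp7/Foxp3cre, whereas their own genotype label reads fl-HDAC11/Foxp3cre. The control samples are labelled Foxp3cre and titled B6_WT, so both groups carry Foxp3cre and both are on a C57BL/6 background. Foxp3cre expresses the recombinase from the Foxp3 gene, which limits a floxed deletion to cells that have switched Foxp3 on. Neither age nor sex is given in the labels, and whether mice were pooled is not stated. The series text calls the samples independent, and the p-values reflect only the scatter among these 6 arrays.

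Before S phase, the origin recognition complex, Cdc6 and Cdt1 load the ring-shaped Mcm2 to Mcm7 helicase onto DNA, a step called licensing. Cyclin-dependent kinases then recruit Cdc45 and the GINS complex, which switch the helicase on, and polymerases with the sliding clamp Pcna copy both strands. Resting T cells hold most of this machinery low and raise it after activation, when cyclin D and cyclin E kinases release the E2F factors that drive its genes.

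Arrays correlated best within their own group. Pearson's r over probe sets was 0.9917 to 0.9927 among USP7-titled arrays, 0.9950 to 0.9958 among control arrays and 0.9703 to 0.9749 between the groups. Usp7 fell by 1.01 on the log2 scale (limma adjusted p = 1.32e-06) and Hdac11, which was dim, fell by 0.58 (limma adjusted p = 0.0154), so these levels do not settle which allele was floxed. The T cell marker Cd4 read 12.83, 12.81 and 12.86 in USP7-titled arrays, against 12.82, 12.83 and 12.81 in controls. Foxp3, which defines Treg, read 6.85, 7.29 and 6.87 in USP7-titled arrays, against 12.82, 13.13 and 12.99 in controls, by its only probe set. Of 10 measured Treg and T cell markers, 6 fell and the other 4 missed the threshold, with Foxp3 (-5.98) and Ctla4 (-0.36) changing most. Of all genes, 15.9% fell. The female transcript Xist fell by 7.20 and the Y-linked Eif2s3y rose by 5.65, so the sex of the mice and the group cannot be told apart in any result below.

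Nearly the whole replication and G1/S list was higher in the USP7-titled arrays. Of 36 measured members, 34 rose, 1 fell (Ccnd2) and 1 did not pass the test (Tyms), at a limma adjusted p under 0.05 over all genes. Among all genes tested, 17.0% rose and 15.9% fell, 32.9% in either direction. The median log2 change of the members was 1.10, a 2.15-fold difference, against -0.05 for all genes. In 34 members every USP7-titled array was above every control array, as in 20.9% of all genes. In 1 member every USP7-titled array was below every control array, as in 24.7% of all genes. By size, 20 members rose by at least 2-fold, as did 3.12% of all genes. Hybridization spikes are RNAs added at known amounts. Scaled to 9 probe sets of these spikes, the same number of members rose and 0 fell. The share of rises among all calls was then 75.2% where it had been 51.5%.

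The 3 USP7-titled arrays gave much the same value over the list. Set against each gene's control mean, the median member stood 1.15, 1.12 and 1.13 log2 units higher in the USP7-titled arrays, against 0.02, -0.01 and 0.01 in the control arrays. In these arrays 35, 35 and 34 of the 36 members lay above their highest control value. The matching share of all genes was not computed for single arrays. Since RNA was read from bulk samples, more dividing cells and more of these RNAs per cell cannot be told apart. Foxp3 changed by -5.98, and whether the sorted cells of the groups were the same populations was not tested. A sign of RNA quality also differed: the 3' minus 5' signal of Gapdh was 0.907, 0.986 and 0.946 log2 units in USP7-titled arrays, against 1.08, 0.989 and 1.23 in controls. All USP7-titled values lay below the controls, though the nearest were 0.986 and 0.989, and 24.7% of all genes were separated this way. Those of actin overlapped, and the part of these signals in the members' rise was not tested. Myeloid markers moved with the group: 15 of 20 rose and 1 fell, against 17.0% and 15.9% of all genes. Their summed linear signal was 7732 to 9032 in USP7-titled arrays, against 3064 to 3540 in controls. Their largest changes were those of C1qb (2.86) and Lyz1 (2.48), and their part in the members' rise was not tested. Of the other marker lists, 1 of 9 B cell markers rose and 1 fell, again against 17.0% and 15.9% of all genes. Ms4a1 rose by 0.998 and Cr2 fell by 0.59. Of 9 CD8 T and NK markers 2 rose, Gzma (3.21) and Nkg7 (2.76), and 1 fell, Prf1 (-0.45). The other 6 did not pass, and the median change of that list was -0.15. Of 5 erythroid markers 0 passed by limma at the adjusted threshold, and at an unadjusted p under 0.05 the count was 0, with Hba-a1 at -0.28 and Alas2 at -0.20.

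**Figure D1:**
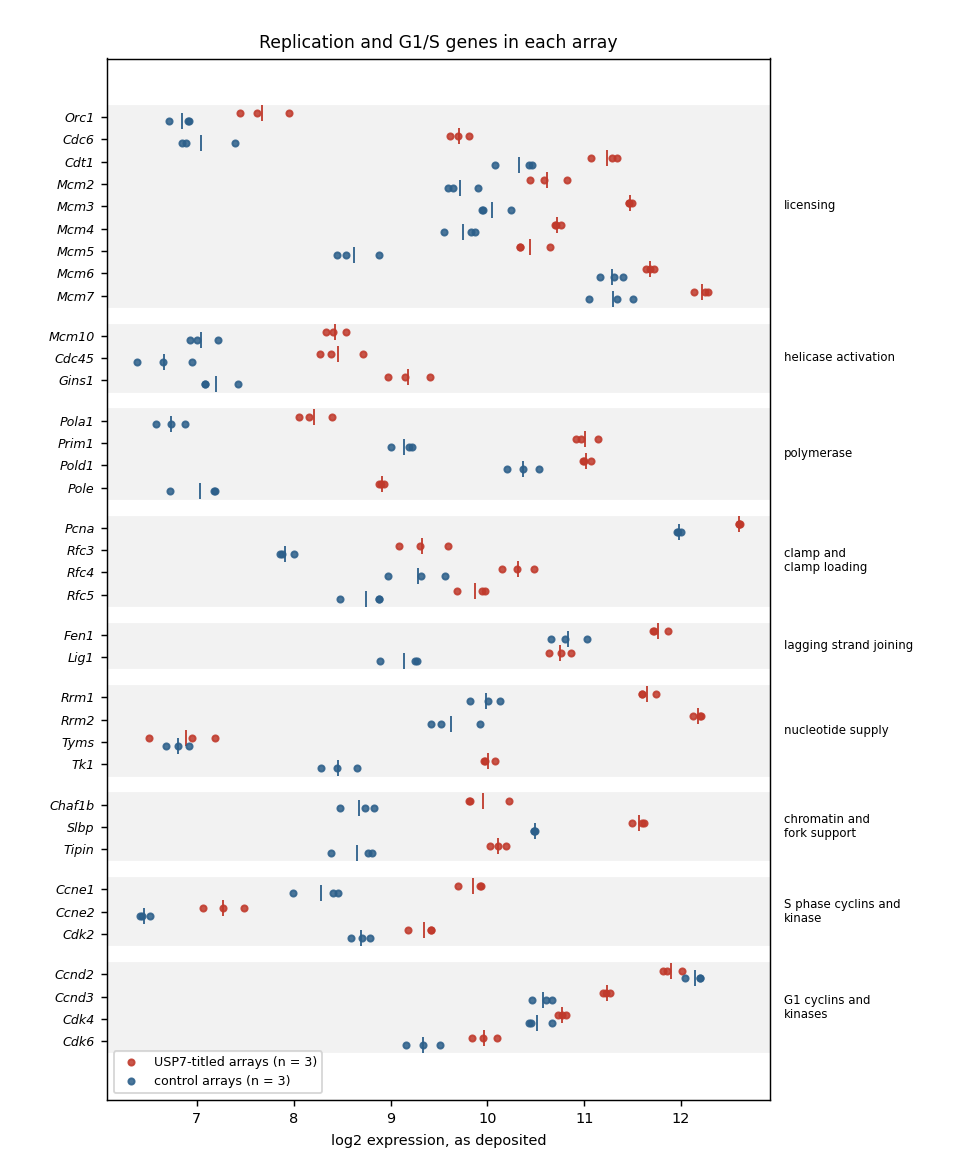
Log2 expression as deposited (horizontal axis) of each measured member, grouped by role down the page. Red points are the 3 USP7-titled arrays, blue points the 3 control arrays, and vertical ticks the group means. Red points lie to the right of all blue points in 34 of 36 rows, with Ccnd2 to the left and Tyms overlapping.

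The promoters of these genes were examined because the members rose together. The search used no array values, so its shares describe which genes were listed and were not a test of the rise. E2F factors are the known activators of many S phase genes and bind words such as TTTCCCGC, TTTCGCGC, TTTGCCGC and TTTGGCGC. These 4 words were searched on both strands in RefSeq windows of mouse assembly GRCm38.p6, which run from 250 bases before to 50 bases after each tabulated gene start. A window was found for 31 of the 38 members, and 12 of these 31 (38.7%) held at least 1 word. Of all 27025 genes with a window, 704 (2.605%) held a word. Those genes were not limited to the 12393 measured on the array. The 12 were Orc1, Cdc6, Cdt1, Mcm3, Mcm5, Mcm6, Mcm7, Pola1, Pold1, Rfc3, Lig1 and Cdk2. Mcm2 and Mcm10 also have a window, and neither held a word.

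The next stretches lie upstream of the tabulated start and are written in the direction of the gene, with every E2F word in capitals. Mcm5 and Mcm6, subunits of the same helicase, both hold a pair of words that overlap on opposite strands and are counted as 2 matches. The Mcm5 stretch is chr8:75109339-75109467 on the plus strand, which ends where the annotated gene span begins. The Mcm6 stretch, chr1:128359706-128359875 on the minus strand, holds a further word nearer the start. The Cdk2 stretch, chr10:128705052-128705221 on the minus strand, holds 1 word. The Rrm2 stretch, chr12:24708084-24708253 on the plus strand, is shown because Rrm2 rose by 2.56 and had none of these words in its window.
Mcm5: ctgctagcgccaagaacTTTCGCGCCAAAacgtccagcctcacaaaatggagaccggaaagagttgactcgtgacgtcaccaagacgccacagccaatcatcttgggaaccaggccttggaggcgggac
Mcm6: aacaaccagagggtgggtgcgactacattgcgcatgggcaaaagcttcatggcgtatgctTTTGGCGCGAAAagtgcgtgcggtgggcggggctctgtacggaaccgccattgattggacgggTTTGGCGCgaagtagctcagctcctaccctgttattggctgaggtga
Cdk2: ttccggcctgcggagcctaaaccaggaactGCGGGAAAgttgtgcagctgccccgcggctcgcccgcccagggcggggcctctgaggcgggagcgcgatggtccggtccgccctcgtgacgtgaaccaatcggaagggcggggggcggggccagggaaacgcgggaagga
Rrm2: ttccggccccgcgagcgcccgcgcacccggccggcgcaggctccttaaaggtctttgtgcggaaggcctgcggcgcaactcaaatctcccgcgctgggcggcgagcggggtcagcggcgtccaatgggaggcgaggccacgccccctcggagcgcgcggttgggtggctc

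For the 9 remaining genes with a word, 30 bases around the match nearest the 5' end are given, again with E2F words in capitals. They lie at chr4:108579416-108579445 (Orc1, plus strand), chr11:98908002-98908031 (Cdc6, plus strand) and chr8:122568035-122568064 (Cdt1, plus strand). The next 3 lie at chr1:20820275-20820304 (Mcm3, minus strand), chr5:138172030-138172059 (Mcm7, minus strand) and chrX:93632275-93632304 (Pola1, minus strand). The last 3 lie at chr7:44548766-44548795 (Pold1, minus strand), chr5:151651200-151651229 (Rfc3, minus strand) and chr7:13278841-13278870 (Lig1, plus strand). Where the capitals read GCGGGAAA, GCGCGAAA or GCGCCAAA, the word stands on the opposite strand. The stretches of Cdt1, Mcm3, Pold1 and Lig1 lie after the tabulated start, that of Lig1 after the second of its 3 tabulated starts. Mcm3 and Mcm7 hold 1 further word each outside the bases shown.
Orc1: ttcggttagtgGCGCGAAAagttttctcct
Cdc6: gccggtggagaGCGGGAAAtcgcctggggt
Cdt1: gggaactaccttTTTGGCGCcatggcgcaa
Mcm3: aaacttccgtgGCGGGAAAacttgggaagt
Mcm7: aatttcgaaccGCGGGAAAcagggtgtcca
Pola1: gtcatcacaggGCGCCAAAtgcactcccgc
Pold1: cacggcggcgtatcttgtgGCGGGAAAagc
Rfc3: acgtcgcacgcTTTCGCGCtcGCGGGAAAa
Lig1: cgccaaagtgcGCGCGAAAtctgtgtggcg

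Members with and without an E2F word had similar median changes, a difference that was not tested. The 12 with a word had a median log2 change of 1.17 (0.39 to 2.66), and the 18 measured members with a window and no word had a median of 1.10 (0.08 to 2.56). A further pair of cell cycle words was searched on both strands in the same windows: CCAAT, bound by NF-Y, and TTTGAA, the CHR word of many mitosis genes. Matches of different words were allowed to overlap. CCAAT was found in 18 of 31 members (58.1%) and in 41.1% of all genes with a window. TTTGAA was found in 3 of 31 members (9.68%) and in 20.2% of all genes with a window. E2F words were found in 23.3% of 43 other replication genes and 33.3% of 21 G1/S regulators, and TTTGAA in 18.6% and 38.1% of them. Mitosis genes held E2F words in 1 of 30 (3.33%), CCAAT in 23 of 30 (76.7%) and TTTGAA in 22 of 30 (73.3%). Differences between the lists were not tested. A match is a run of letters and was not tested as a binding site.

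**Figure D2:**
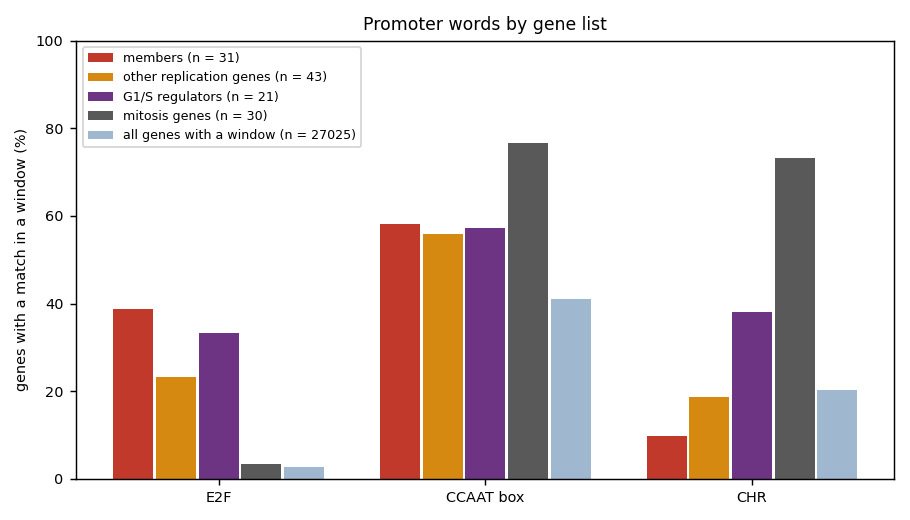
Share of genes (vertical axis, percent) with at least 1 match to the E2F words, CCAAT or the CHR word TTTGAA in a promoter window, for 5 gene sets with the number of genes that have a window. E2F words stand at 38.7% of members and 3.33% of mitosis genes, whereas the CHR word stands at 9.68% of members and 73.3% of mitosis genes.

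All 9 licensing genes rose, with a median log2 change of 0.92. Cdc6, the loader that brings the Mcm ring to origins, had the largest change among the members' brightest probe sets. Rrm2 exceeded it with averaged probe sets (2.87), with the dimmest probe set (3.17) and without control replicate 3 (2.71, against 2.58 for Cdc6). Cdc6 read 9.62, 9.81 and 9.69 in USP7-titled arrays, against 6.85, 7.39 and 6.89 in controls, a change of 2.66 (SE 0.15, 6.32-fold, limma adjusted p = 2.76e-07). The lowest USP7-titled array was 2.22 log2 units above the highest control. Its partner Cdt1 read 11.07, 11.29 and 11.34 in USP7-titled arrays, against 10.08, 10.43 and 10.46 in controls, a change of 0.91 (SE 0.11). Orc1, the origin recognition subunit that cells make and destroy in each cycle, read 7.62, 7.44 and 7.95 in USP7-titled arrays, against 6.92, 6.71 and 6.91 in controls, a change of 0.82 (SE 0.15). Neither gene's groups overlapped.

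The 6 subunits of the Mcm2 to Mcm7 helicase rose by unequal amounts by their brightest probe sets. Mcm5 read 10.34, 10.34 and 10.65 in USP7-titled arrays, against 8.88, 8.54 and 8.45 in controls, a change of 1.82 (95% interval 1.53 to 2.11). Mcm3 read 11.47, 11.49 and 11.46 in USP7-titled arrays, against 9.96, 9.94 and 10.24 in controls, a change of 1.43 (1.24 to 1.61). Mcm2, Mcm4 and Mcm7 rose by 0.90, 0.97 and 0.92. Mcm6 changed least, reading 11.72, 11.68 and 11.64 in USP7-titled arrays, against 11.40, 11.31 and 11.16 in controls, a change of 0.39 (0.24 to 0.53). A dimmer Mcm6 probe set rose by 0.9999 (SE 0.098), so the gap between Mcm6 and Mcm2, Mcm4 and Mcm7 depends on the probe set. The difference between subunits was not tested.

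The 3 measured factors that activate the loaded helicase all rose, with a median log2 change of 1.80. Gins1, a subunit of the GINS complex, averaged 9.18 ± 0.22 in USP7-titled arrays and 7.20 ± 0.20 in controls (SD, n = 3 each). Its change was 1.98 (SE 0.15, 3.94-fold). Cdc45, which completes the active helicase with GINS, read 8.39, 8.71 and 8.27 in USP7-titled arrays, against 6.65, 6.94 and 6.39 in controls, a change of 1.80 (SE 0.17). Mcm10, which is needed for the helicase to start moving, rose by 1.38 by its brightest probe set and by 2.29 by the other. In all 3 genes the lowest USP7-titled array stood at least 1.12 log2 units above the highest control.

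The polymerase genes rose by 0.65 to 1.88, with a median of 1.67. Pola1 and Prim1 belong to the polymerase alpha and primase complex that starts each new strand. Prim1 read 10.91, 11.14 and 10.97 in USP7-titled arrays, against 9.01, 9.19 and 9.22 in controls, a change of 1.87 (SE 0.09, 3.65-fold). Pola1, on the X chromosome, rose by 1.47 (SE 0.14). Pole, the catalytic subunit of the leading strand polymerase epsilon, read 8.93, 8.88 and 8.90 in USP7-titled arrays, against 6.72, 7.19 and 7.18 in controls, a change of 1.88 (SE 0.14). Pold1, the catalytic subunit of the lagging strand polymerase delta, read 11.07, 10.99 and 10.995 in USP7-titled arrays, against 10.37, 10.21 and 10.53 in controls, a change of 0.65 (SE 0.09) by its brightest probe set and 0.74 by the other. The 95% intervals of Pole (1.57 to 2.19) and Pold1 (0.46 to 0.84) did not overlap, though the difference between them was not tested.

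**Figure D3:**
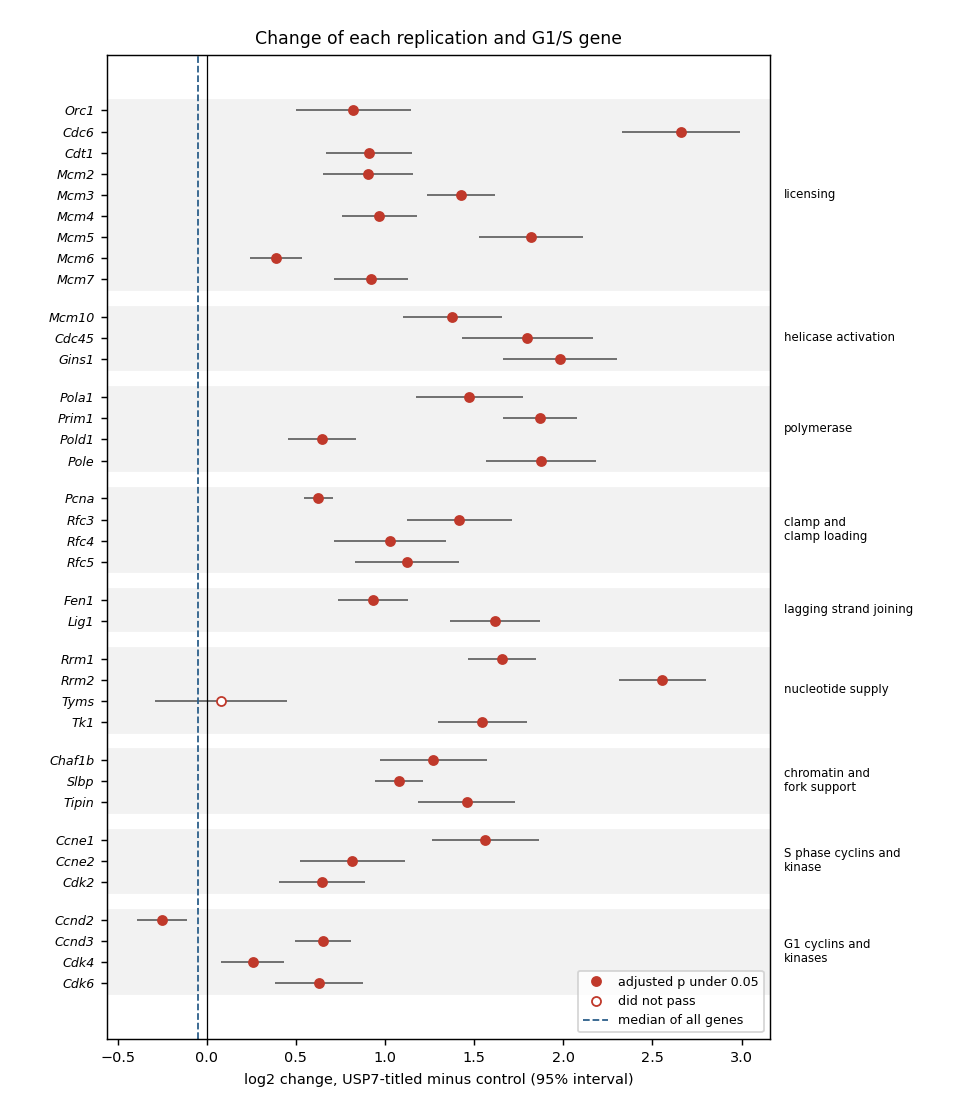
Log2 change of each measured member, USP7-titled minus control (horizontal axis), with its 95% interval from limma, grouped by role. Filled points passed an adjusted p of 0.05 and the open point, Tyms, did not. The dashed line is the median of all genes (-0.05). Changes run from -0.25 for Ccnd2 to 2.66 for Cdc6, and the 4 G1 cyclins and kinases lie at 0.65 or below.

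Among the clamp and its loaders, Pcna had the smallest rise and the smallest spread. Pcna, the ring that tethers polymerases to DNA, read 12.61, 12.60 and 12.60 in USP7-titled arrays, against 11.97, 11.96 and 12.00 in controls, a change of 0.63 (SE 0.04, limma adjusted p = 4.06e-07). It was already among the brightest genes, with a control mean at the 96.7th percentile. The replication factor C subunits Rfc3, Rfc4 and Rfc5, which open the clamp and place it on DNA, rose by 1.42, 1.03 and 1.12. Rfc3 read 9.59, 9.30 and 9.09 in USP7-titled arrays, against 7.88, 7.86 and 7.999 in controls. On the lagging strand, the flap nuclease Fen1 rose by 0.94 and the ligase Lig1, which seals the finished fragments, by 1.62. Lig1 read 10.64, 10.87 and 10.76 in USP7-titled arrays, against 9.27, 8.89 and 9.25 in controls.

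Of the 4 nucleotide supply genes, 3 rose strongly and 1 did not pass. Rrm2, the small subunit of ribonucleotide reductase whose level rises and falls with S phase, read 12.12, 12.21 and 12.19 in USP7-titled arrays, against 9.42, 9.52 and 9.92 in controls. Its change was 2.56 (SE 0.11, 5.88-fold, limma adjusted p = 4.30e-08), and its dimmer probe sets rose by 2.89 and 3.17. The large subunit Rrm1 read 11.60, 11.74 and 11.59 in USP7-titled arrays, against 10.13, 10.01 and 9.82 in controls, a change of 1.66 (SE 0.09). Tk1, the thymidine kinase that salvages thymidine, read 9.98, 10.08 and 9.96 in USP7-titled arrays, against 8.66, 8.44 and 8.28 in controls, a change of 1.55 (SE 0.11). In these 3 genes the groups did not overlap.

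Tyms, the thymidylate synthase that makes thymidylate anew, did not pass by its brightest probe set. It read 6.95, 7.18 and 6.51 in USP7-titled arrays, against 6.68, 6.92 and 6.81 in controls, a change of 0.08 (95% interval -0.29 to 0.45, limma adjusted p = 0.761). The groups overlapped, and the probe set was dim, with a control mean at the 31.5th percentile. Of its 2 other probe sets, of nearly the same brightness, 1 rose by 0.56 (limma adjusted p = 0.0246) and the other was at 0.48 (limma adjusted p = 0.13). A further probe set that the annotation gives to Tyms together with another symbol was not used, so the level of Tyms is uncertain here.

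The genes that rebuild chromatin or support the fork rose by similar amounts. Chaf1b, a subunit of the chromatin assembly factor CAF-1 that deposits histones on new DNA, read 10.22, 9.81 and 9.82 in USP7-titled arrays, against 8.82, 8.73 and 8.47 in controls, a change of 1.27 (SE 0.14). Slbp, which binds the stem-loop of histone mRNA and is needed to translate it, averaged 11.57 ± 0.07 in USP7-titled arrays and 10.49 ± 0.0066 in controls (SD, n = 3 each), a change of 1.08 (SE 0.06). Tipin, which stabilises stalled forks together with Timeless, read 10.03, 10.19 and 10.11 in USP7-titled arrays, against 8.81, 8.38 and 8.77 in controls, a change of 1.46 (SE 0.12).

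Cyclin E, which with Cdk2 drives entry into S phase, rose by both of its genes. Ccne1 read 9.93, 9.92 and 9.70 in USP7-titled arrays, against 7.99, 8.40 and 8.46 in controls, a change of 1.56 (SE 0.14, 2.96-fold). Ccne2, which was dimmer, read 7.06, 7.27 and 7.48 in USP7-titled arrays, against 6.52, 6.43 and 6.41 in controls, a change of 0.82 (SE 0.13). Their kinase Cdk2 rose by 0.65 (SE 0.11). The groups did not overlap for any of the 3.

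The genes that act earlier in G1 moved least, with a median of 0.44, and went both ways. Ccnd3, a D-type cyclin, read 11.23, 11.27 and 11.20 in USP7-titled arrays, against 10.60, 10.67 and 10.46 in controls, a change of 0.65 (SE 0.07). Its kinase partner Cdk6 rose by 0.63 (SE 0.11). The other partner, Cdk4, read 10.77, 10.82 and 10.73 in USP7-titled arrays, against 10.43, 10.67 and 10.45 in controls, a change of 0.26 (SE 0.08, limma adjusted p = 0.0284). The groups of Cdk4 were 0.07 log2 units apart, and its call was lost when USP7-titled replicate 1 or 2 or control replicate 1 or 3 was left out (limma adjusted p = 0.0578, 0.088, 0.113 and 0.0796). It was also lost with quantile normalization (limma adjusted p = 0.0753), with the dimmest probe set (limma adjusted p = 0.0569) and without a mean-variance trend (limma adjusted p = 0.0727). In all, the call held in 11 of 20 settings.

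Ccnd2, the other D-type cyclin on the list, was the only member that fell. It read 12.01, 11.81 and 11.86 in USP7-titled arrays, against 12.20, 12.20 and 12.04 in controls, a change of -0.25 (SE 0.06, limma adjusted p = 0.00958). The groups were 0.03 log2 units apart. Of its 7 probe sets 5 fell and 2 did not pass, with changes between -0.37 and -0.07. Its call was lost when the arrays were scaled to the 9 spike probe sets, at a change of -0.10 (limma adjusted p = 0.303). It was also lost without a mean-variance trend (limma adjusted p = 0.0789).

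Further probe sets of the members mostly gave the same call. There were 32 of them, over 18 genes, and 26 had the call of the brightest probe set. Among these 18 genes the second brightest probe set was further toward a rise than the brightest in 11, by 0.91 in Mcm10, 0.61 in Mcm6, 0.48 in Tyms and 0.42 in Fen1. The call of Tyms changed with it, to a rise. Dim probe sets of Cdt1 and Slbp, whose mean levels were 5.98 and 6.46 log2 units under the brightest, stood at -0.14 and 0.14 and did not pass. Across the 36 members the control level and the change had a Pearson r of -0.45 (Spearman's rho -0.46), a description over genes that are not independent and in which the control arrays enter both quantities.

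**Figure D4:**
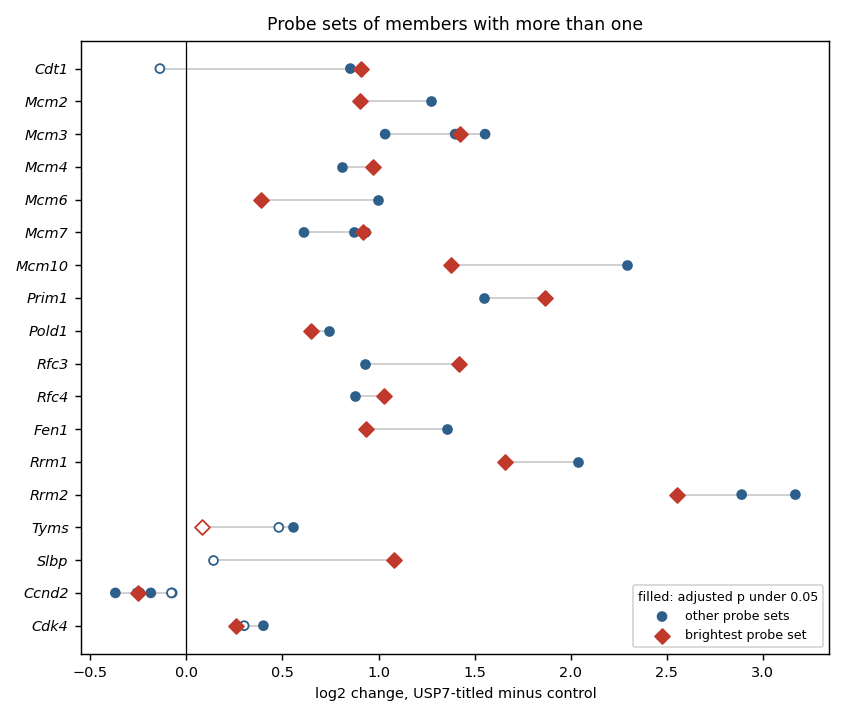
Log2 change, USP7-titled minus control (horizontal axis), of every probe set of the 18 members that have more than 1. Red diamonds are the brightest probe sets, blue circles the others, and filled symbols passed an adjusted p of 0.05. Mcm2, Mcm6, Mcm10, Fen1, Rrm1, Rrm2 and Tyms are among the genes with other probe sets to the right of the brightest. All 7 of Ccnd2 lie left of 0.

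The rest of the replication pathway rose less uniformly. Of 42 measured genes of a wider replication list, 29 rose, 5 fell and 8 missed the threshold, and the median change was 0.51. The shares of all genes that rose and fell were 17.0% and 15.9%. The largest rises were those of Asf1b, a histone chaperone (2.53, SE 0.09), Uhrf1, which guides maintenance of DNA methylation (2.32, SE 0.11), Gmnn, the geminin that binds and blocks Cdt1 (1.90, SE 0.10), and Dna2, a nuclease that trims Okazaki flaps (1.70, SE 0.18). Gmnn read 10.41, 10.47 and 10.23 in USP7-titled arrays, against 8.56, 8.39 and 8.47 in controls. The largest falls were those of Orc4 (-0.80) and Orc3 (-0.44), subunits of the origin recognition complex, Mcm9 (-0.56), a helicase of DNA repair, and Rrm2b (-0.46), a p53-induced subunit of ribonucleotide reductase.

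Among genes that control entry into S phase, activators and inhibitors rose side by side. Of 24 measured regulators, 15 rose, 3 fell and 6 missed the threshold, and their median change was 0.51. Over all genes, 17.0% rose and 15.9% fell. The largest rise was that of Cdkn1a, the p21 inhibitor of cyclin-dependent kinases, which read 11.84, 11.86 and 11.84 in USP7-titled arrays, against 7.001, 7.23 and 7.43 in controls, a change of 4.62 (SE 0.11). The atypical repressor E2f8 followed with 3.51 (SE 0.18), then Ccna2, the cyclin A of S phase and G2, with 3.29 (SE 0.11) and the kinase subunit Cks1b with 2.07 (SE 0.08). The genes that fell were Myc, a driver of cell growth (-0.77), E2f5 (-0.50), which was dim, and Cdkn1b, the p27 inhibitor (-0.38). Mitosis genes had larger changes than the replication and G1/S members: 31 of 32 rose by limma, 0 fell (0 at an unadjusted p under 0.05), and the median change was 2.52, against 1.10. The difference between these lists was not tested.

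**Figure D5:**
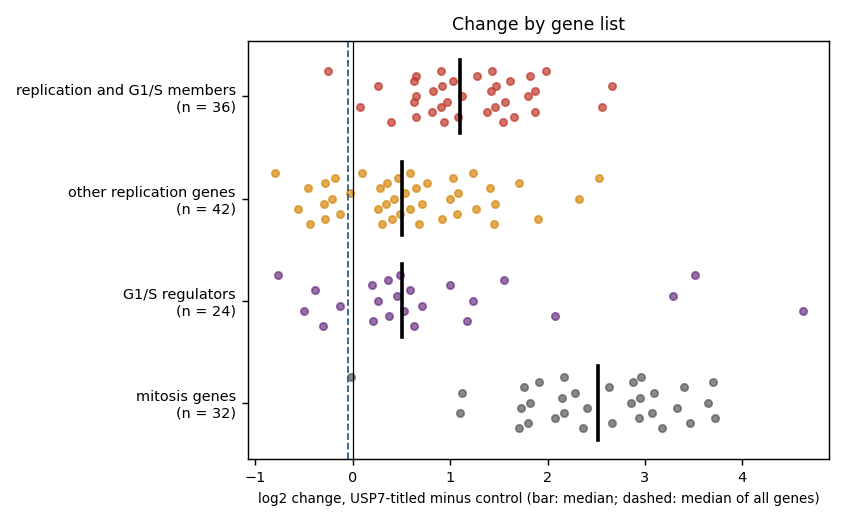
Log2 change, USP7-titled minus control (horizontal axis), of each measured gene of 4 lists, with a black bar at each list's median and a dashed line at the median of all genes. Medians are 1.10 for the 36 members, 0.51 for 42 other replication genes, 0.51 for 24 G1/S regulators and 2.52 for 32 mitosis genes.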

How the data were processed

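Log2 expression values per probe set were used as the authors deposited them, and the log base was read from the values. The labelling kit amplified 100 ng of RNA, per the labels' protocols. How probe sets were summarised and normalized is not given in the sources used here. No scanner file, background or detection call was analysed here. Of 22690 probe sets, 20380 had 1 gene symbol in the platform annotation, 691 several, 1555 none, and 64 were array controls. Symbols of 20351 were found in the reference gene table by gene identifier.

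USP7-titled and control arrays (3 each, grouped by title) entered a two-sided limma fit (version 3.58.1, R 4.3.3, eBayes with trend). Benjamini-Hochberg adjustment ran over 12393 genes, and over 20380 probe sets where single probe sets are given. Changes are USP7-titled minus control. The fit was tested on simulated data. The median residual SD was 0.136, and the number of arrays limits precision.

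The members and lists were chosen with earlier results of these data known. All members are described. From the wider lists, 4 rises and 4 falls past the threshold with the largest change are named, and from marker lists the 2 largest changes. Alternatives covered scaling, filters, probe set choice, the variance model, thresholds and each array left out. Same-numbered arrays deviated with correlations of 0.079, -0.060 and 0.094, so the numbers were not taken as pairs.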

Additional observations from a re-analysis of the deposited data

How the results depend on the processing

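Over 20 alternative settings the number of members that rose lay between 31 and 34, other than 20 with a 2-fold minimum. It was 31 with the dimmest probe set of each gene and 32, of 33 left, without the dimmest 40% of probe sets. The number that fell was 1, other than 0 under both spike scalings, without a trend and with the 2-fold minimum. With each array left out, 33 to 34 members rose, 1 fell, 3201 to 4020 of all genes passed, and 31 to 34 other replication genes and 16 to 18 regulators passed. The members' median change was 1.07 to 1.13 with an array left out. It was 1.06 with quantile normalization, 1.26 with 9 spike probe sets and 1.26 with 18 (a setting chosen after seeing the data). It was 1.27 without the dimmest 40% of probe sets and 1.14 with averaged probe sets. It was 1.08 with the dimmest probe set and 1.08 without genes on X and Y. The median of all genes was 0.10 with 9 spike probe sets and 0.11 with 18. Genes passing fell to 2695 at a threshold of 0.01 and 539 with the 2-fold minimum, which left 12 other replication genes and 7 regulators. With 9 spike probe sets 2906 genes rose and 959 fell, against 2102 and 1976 as deposited.

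Of 716 member values under alternatives, 687 kept their direction and call, 27 lost the call, and 2 changed sign: Cdt1 by its dimmest probe set (-0.14) and Tyms without USP7-titled replicate 2. With each array left out, Tyms lay between -0.072 and 0.26. With the replicate number as a block, 34 members rose, 1 fell and 4059 genes passed, with a median member change of 1.10. That block changed no member's call. The arrays share a number only. Signal over background could not be assessed without scanner files.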

Other observations

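Subunits of a replication complex did not always move together by their brightest probe sets. These genes were named after their values were seen. Orc2, Orc3 and Orc4 have 3 probe sets each, and their other probe sets are not given here. In the origin recognition complex, Orc6 rose by 1.23 and Orc2 by 0.40 beside Orc1, Orc4 and Orc3 fell, and Orc5 was at -0.03 (limma adjusted p = 0.92). Orc4 read 8.91, 8.97 and 9.15 in USP7-titled arrays, against 9.84, 9.70 and 9.89 in controls. Of the smaller polymerase subunits, Pole2 and Pole3 rose by 1.41 and 0.76, and Pole4 was at -0.21 (limma adjusted p = 0.0973). Pold2 and Pold3 rose by 0.49 and 0.53, and Pold4 was at -0.18 (limma adjusted p = 0.147). All 3 subunits of the single-strand binding complex RPA rose, Rpa1 by 0.30, Rpa2 by 0.997 and Rpa3 by 1.07.

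Nucleotide enzymes outside the member list were also named after their values were seen. Dut, which removes dUTP, read 12.31, 12.36 and 12.40 in USP7-titled arrays, against 10.86, 10.88 and 10.99 in controls, a change of 1.45 (SE 0.05). The deoxycytidine kinase Dck rose by 1.03 and the thymidylate kinase Dtymk by 0.34. Samhd1, which degrades deoxynucleoside triphosphates, read 12.72, 12.68 and 12.61 in USP7-titled arrays, against 12.97, 12.97 and 12.94 in controls. Its change was -0.29 (SE 0.04).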
